A study of Mus musculus with 8 samples.

Results

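Genes of the mitochondrial respiratory chain were followed in mammary tumors of transgenic mice, with each tumor on an Affymetrix Mouse Exon 1.0 ST array of its own. Members are those whose symbol starts with Ndufa, Ndufb, Ndufc, Ndufs, Ndufv, Uqcr, Cox4, Cox5, Cox6, Cox7 or Atp5, together with Sdhb, Sdhc, Sdhd and Cyc1 and without Cox7a1, and each had to stand alone on its row of the array annotation. This gave 59 rows for 59 genes, of 23332 rows in all and 14996 rows annotated with exactly 1 gene. Of the 59, 27 are subunits of complex I, 3 of complex II, 6 of complex III, 9 of complex IV and 8 of complex V, and the remaining 6, named Ndufaf, are assembly factors of complex I. Another 7 rows that name such a gene together with other genes were left out.

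Of the tumors, 4 came from MMTV-Wnt/ILK mice and 4 from MMTV-Wnt1 mice, all nulliparous females on the FVB background. The authors call the tumors independent, and whether each came from a different mouse is not stated. Both groups carry the mouse Wnt1 transgene, to which MMTV-Wnt/ILK mice add a transgene for human ILK (integrin-linked kinase). Each transgene is driven by the mouse mammary tumor virus promoter, which is active in the mammary epithelium. Whole tumors were profiled, stroma included, and the ages of these mice are not given in the sources used here. In bulk tissue, fewer cells of a type and less RNA per cell cannot be told apart.

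The respiratory chain moves electrons from NADH (complex I) and succinate (complex II) through complex III and cytochrome c to oxygen at complex IV, and complex V uses the resulting proton gradient to make ATP. Nearly all of its subunits are encoded in the nucleus, while a small core of every complex except complex II comes from mitochondrial DNA. No row of the table carried a mitochondrially encoded gene symbol, so only nuclear genes are described. Several subunits of complex IV exist as isoforms that differ between tissues.

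As a check of the tissue, the epithelial genes Epcam and Krt18 were bright in all 8 tumors, at log2 values from 12.33 to 12.89 and from 11.15 to 12.67. Wnt1 ran from 10.48 to 10.99 in MMTV-Wnt/ILK tumors and from 10.01 to 11.10 in MMTV-Wnt1 tumors, and the mouse Ilk row ran from 10.57 to 10.91 in MMTV-Wnt/ILK tumors and from 10.53 to 10.87 in MMTV-Wnt1 tumors. Whether that row reads the human transgene was not tested. Fat and muscle genes were high in single tumors. The brown fat gene Ucp1 stood at 10.80 in MMTV-Wnt1 tumor 2 and between 4.66 and 5.45 in the others, and the skeletal muscle actin Acta1 stood at 11.14 in MMTV-Wnt/ILK tumor 3, at 10.41 in MMTV-Wnt1 tumor 1 and between 6.24 and 6.91 in the others. Array medians lay between 7.0 and 7.23 in MMTV-Wnt/ILK tumors and between 6.89 and 7.23 in MMTV-Wnt1 tumors.

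Most respiratory chain genes averaged somewhat lower in MMTV-Wnt/ILK tumors, and none was called different. The mean was lower for 43 of 59 genes and higher for 16, against a lower mean for 54.7% of all rows and 59.1% of rows with exactly 1 gene. Without the 6 assembly factors it was lower for 37 of 53 subunits. The median log2 difference, MMTV-Wnt/ILK minus MMTV-Wnt1, was -0.14 over the 59 genes and -0.03 over all rows, and single genes ran from -0.95 for Atp5mpl to 0.62 for Cox6a1. In limma, which moderates each row's variance by those of all rows, 0 of the 59 genes passed an adjusted p of 0.05, as did 0% of all rows (1193 rows, or 5.11%, had an unadjusted p under 0.05, and 1203 did in an equal-variance test per row). At an unadjusted p under 0.05, 1 member was higher (Cox6a1) and 2 were lower (Sdhc and Atp5j2), where that rule called 2.91% of all rows higher and 2.21% lower. Among the 14996 rows with exactly 1 gene it called 3.71%, with 1.87% higher and 1.84% lower. By size, 6 members had a mean at least 0.5 log2 units lower and 1 at least 0.5 higher, as had 5.42% and 6.18% of all rows and 4.35% and 3.04% of rows with exactly 1 gene. The median standard error was 0.21. The groups overlapped for all 59 genes, while 1.47% of all rows lay wholly higher and 1.42% wholly lower in MMTV-Wnt/ILK tumors, and 1.27% and 1.43% of rows with exactly 1 gene did so.

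These counts rested on single tumors. The number lower at an unadjusted p under 0.05 was 12 when either MMTV-Wnt/ILK tumor 2 or MMTV-Wnt1 tumor 1 was dropped and 1 when MMTV-Wnt1 tumor 4 was dropped. By the same rule 3.35% of all rows were lower when MMTV-Wnt/ILK tumor 2 was dropped and 5.67% when MMTV-Wnt1 tumor 1 was. It was 0 on dropping any other single tumor, which were MMTV-Wnt/ILK tumors 1, 3 and 4 and MMTV-Wnt1 tumors 2 and 3. The number higher was 3 on dropping MMTV-Wnt/ILK tumor 2, 1 on dropping MMTV-Wnt1 tumor 2, and 0 on dropping any other. The median over the 59 genes was -0.24 without MMTV-Wnt/ILK tumor 2, while dropping MMTV-Wnt1 tumor 1 gave -0.27 and dropping MMTV-Wnt1 tumor 4 gave -0.09. It was -0.11 without MMTV-Wnt1 tumor 2, the tumor with the highest brown and white fat markers. In that fit 36 of the 59 genes had a lower mean, as had 50.7% of all rows, against 43 genes and 54.7% of all rows with all 8 tumors. Beside these differences, the median difference was -0.55 over 8 brown fat markers, -0.21 over 8 white fat markers, 0.20 over 8 muscle markers, 0.05 over 11 epithelial markers, 0.13 over 10 leukocyte markers and 0.26 over 10 fibroblast and endothelial markers. The mean log2 value of the epithelial markers ran from 10.49 to 10.61 in MMTV-Wnt/ILK tumors and from 10.26 to 10.74 in MMTV-Wnt1 tumors, and that of the fibroblast and endothelial markers from 9.25 to 9.83 in MMTV-Wnt/ILK tumors and from 8.13 to 9.90 in MMTV-Wnt1 tumors. The part of these cell types in the respiratory chain values was not tested.

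**Figure D1:**
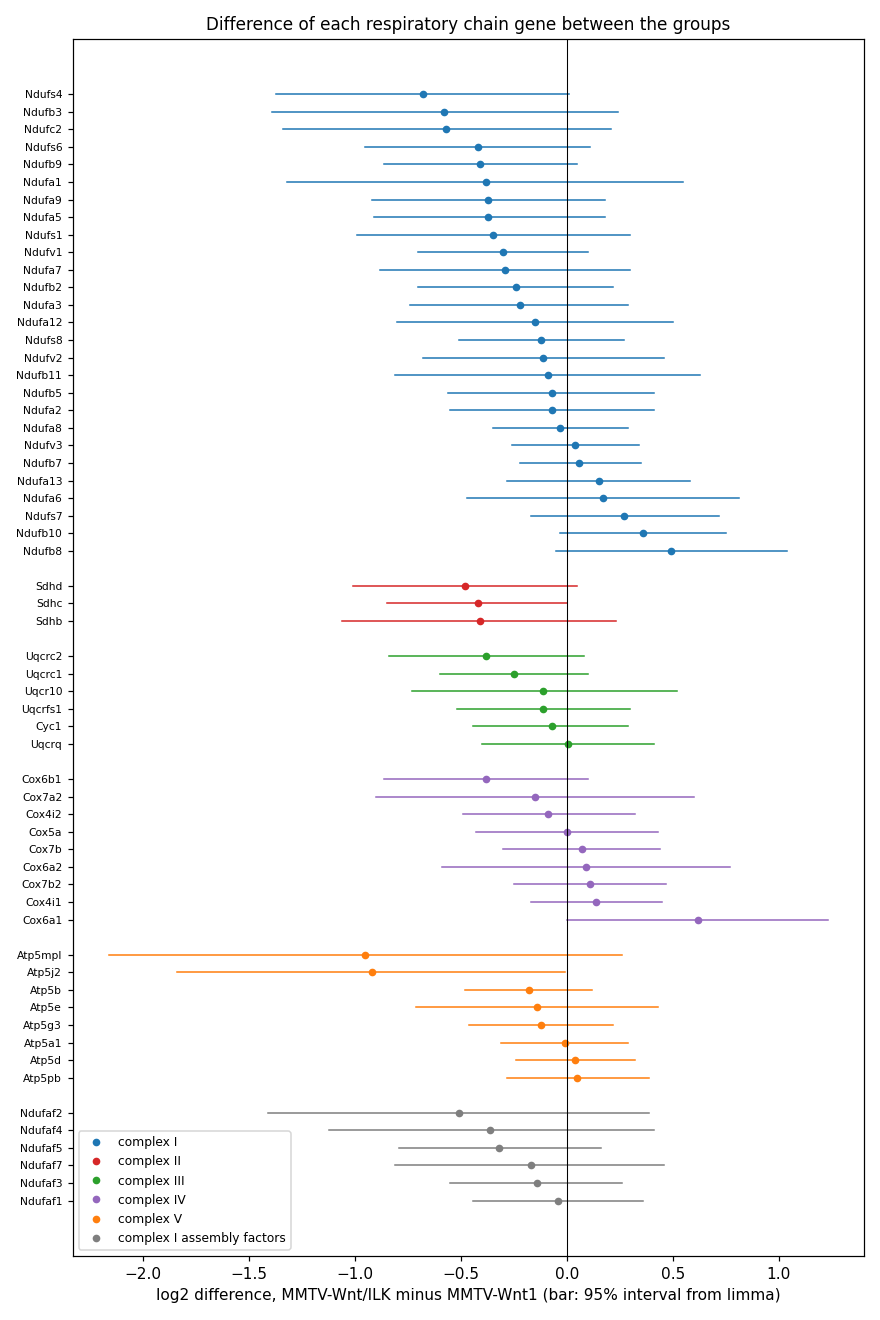
Log2 difference of each of the 59 genes between MMTV-Wnt/ILK and MMTV-Wnt1 tumors (x axis, points) with its 95% interval from limma (bars), grouped and colored by complex. Most points lie left of 0, all 3 complex II genes lie near -0.4 to -0.5, and the intervals of Cox6a1, Sdhc and Atp5j2 end close to 0.

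On the deposited scale the 8 tumors did not sort by group in these genes. After median-centring of the arrays their medians over the 59 genes did, by a narrow margin. Their mean log2 values on the centred scale still overlapped, at 8.63 in MMTV-Wnt/ILK tumor 2 and 8.55 in MMTV-Wnt1 tumor 1. As deposited, 44 of 59 genes lay above their mean over the 8 tumors in MMTV-Wnt/ILK tumor 2, whereas it was 12, 18 and 21 genes in MMTV-Wnt/ILK tumors 1, 3 and 4. In MMTV-Wnt1 tumors 2, 3 and 4 it was 49, 48 and 43 genes, and in MMTV-Wnt1 tumor 1 only 8. On that scale MMTV-Wnt/ILK tumor 2 thus lay with MMTV-Wnt1 tumors 2 to 4, and MMTV-Wnt1 tumor 1 with the other MMTV-Wnt/ILK tumors. Over all rows the share above the mean was 59.2% in MMTV-Wnt/ILK tumor 2 and ran from 39.1% to 49.3% in the others of its group, and it was 36.9% in MMTV-Wnt1 tumor 1 and ran from 55.3% to 58.8% in the others of its group. So the whole arrays leaned the same way, and the respiratory chain genes leaned further. After median-centring the arrays, the median deviation of the 59 genes was -0.16, 0.0014, -0.07 and -0.15 in MMTV-Wnt/ILK tumors 1 to 4 and 0.01, 0.03, 0.25 and 0.06 in MMTV-Wnt1 tumors 1 to 4. Every MMTV-Wnt1 tumor then lay above every MMTV-Wnt/ILK tumor, by little between MMTV-Wnt/ILK tumor 2 and MMTV-Wnt1 tumor 1, and 19, 30, 19 and 21 genes lay above their mean in MMTV-Wnt/ILK tumors, against 31, 33, 52 and 35 in MMTV-Wnt1 tumors. After a repeated quantile normalization the groups overlapped, at -0.17, 0.08, -0.09 and -0.10 in MMTV-Wnt/ILK tumors and -0.03, 0.07, 0.15 and 0.02 in MMTV-Wnt1 tumors. For complex I alone, MMTV-Wnt/ILK tumor 2 stood above MMTV-Wnt1 tumor 1 on all 3 scales, at 0.26 against -0.31 as deposited, 0.12 against -0.11 after median-centring and 0.15 against -0.08 after quantile normalization.

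**Figure D2:**
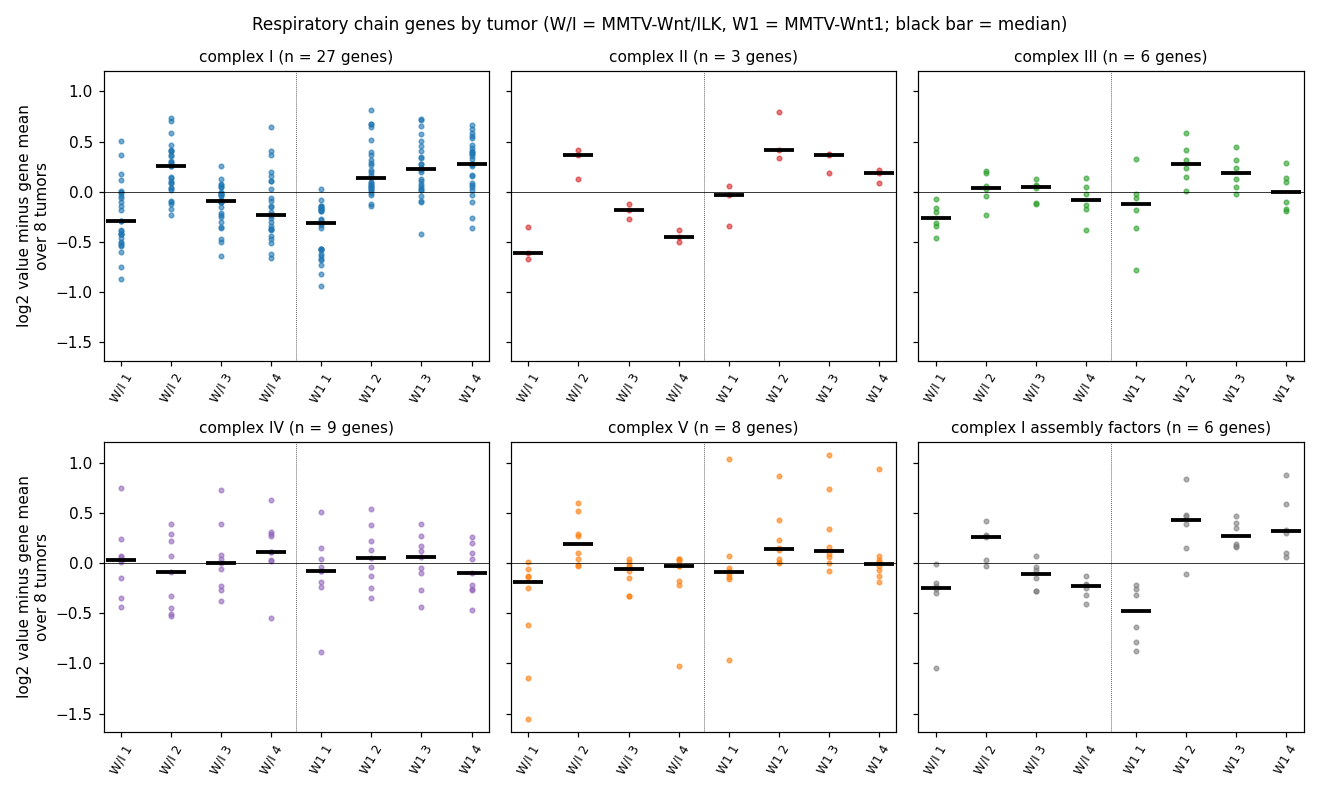
Log2 value of every gene minus its mean over the 8 tumors (y axis), by tumor (x axis, MMTV-Wnt/ILK left and MMTV-Wnt1 right of the dotted line), with 1 panel per complex. Points are genes and black bars are medians. In complex I the median bar was 0.26 in MMTV-Wnt/ILK tumor 2 and -0.31 in MMTV-Wnt1 tumor 1, opposite to the others of their groups, while complex IV medians stayed between -0.10 and 0.12.

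Complex I, the entry point for electrons from NADH, had a median log2 difference of -0.15, with 20 of 27 subunits lower and 7 higher in mean. None passed an unadjusted p of 0.05. Among the subunits that carry electrons, Ndufv1, which binds NADH and flavin, differed by -0.30 (95% interval -0.70 to 0.10), and the iron-sulfur subunit Ndufs1 by -0.35 (-0.99 to 0.30). The iron-sulfur subunits Ndufs8 and Ndufv2 were at -0.12 and -0.11, and Ndufs7, which lies next to the quinone site, was at 0.27 (-0.17 to 0.72). Thus the core subunits did not share 1 direction. Without MMTV-Wnt1 tumor 4 Ndufv2 was at 0.05. The complex I median was -0.34 on leaving out either MMTV-Wnt/ILK tumor 2 or MMTV-Wnt1 tumor 1, and -0.08 on leaving out MMTV-Wnt1 tumor 4.

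Ndufs4, an accessory subunit of the NADH-oxidizing arm, had the smallest p of complex I. Its log2 values were 6.14, 6.56, 6.64 and 6.02 in MMTV-Wnt/ILK tumors and 6.11, 7.32, 7.33 and 7.30 in MMTV-Wnt1 tumors. MMTV-Wnt1 tumors 2, 3 and 4 lay together above all other tumors, and MMTV-Wnt1 tumor 1 lay among the MMTV-Wnt/ILK values. The difference was -0.68 with a standard error of 0.30 (limma, unadjusted p = 0.053 and adjusted p = 0.905, and exact permutation test, p = 0.114), and it was -0.98 without MMTV-Wnt1 tumor 1.

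Ndufb8 and Ndufb10, accessory subunits of the membrane arm, ran the other way. Ndufb8 was at 8.90, 8.16, 8.46 and 9.04 in MMTV-Wnt/ILK tumors and at 7.72, 8.44, 8.29 and 8.13 in MMTV-Wnt1 tumors, a difference of 0.49 (standard error 0.24, exact permutation test, p = 0.114). Ndufb10 was at 7.68, 7.41, 7.76 and 7.91 in MMTV-Wnt/ILK tumors and at 7.23, 7.57, 7.09 and 7.41 in MMTV-Wnt1 tumors, a difference of 0.36 (standard error 0.17, exact permutation test, p = 0.0857). For both genes MMTV-Wnt/ILK tumor 2 was the lowest of its group and the only one within the MMTV-Wnt1 range. Ndufa1, an accessory subunit of the membrane arm, had the widest range of the complex over the 8 tumors, 1.63 log2 units, and Ndufb3, of the same arm, ranged over 1.48. Ndufa1 was dim, and 4 of its 8 values lay below the lower quartile of their array. The 6 complex I assembly factors all had a lower mean, with a median difference of -0.25. Of these, Ndufaf2 differed by -0.51 (standard error 0.40), Ndufaf4 by -0.36 (standard error 0.34) and Ndufaf5 by -0.32 (standard error 0.21), and their groups overlapped.

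Complex II, which is also the succinate dehydrogenase of the TCA cycle, had the most negative median of the 5 complexes, at -0.42, and its 3 measured genes lay close together. Sdhc, a membrane anchor that helps hold the heme and the quinone, was at 9.56, 10.04, 9.79 and 9.41 in MMTV-Wnt/ILK tumors and at 9.88, 10.33, 10.28 and 10 in MMTV-Wnt1 tumors. Only MMTV-Wnt/ILK tumor 2 reached into the MMTV-Wnt1 range. The log2 difference was -0.42, a fold change of 0.75, with a 95% interval from -0.85 to -2.5e-05 (limma, unadjusted p just under 0.05, adjusted p = 0.905, and exact permutation test, p = 0.0857). Sdhd, the other membrane anchor, was at 8.97, 10.05, 9.37 and 9.19 in MMTV-Wnt/ILK tumors and at 9.69, 9.97, 10.01 and 9.85 in MMTV-Wnt1 tumors, a difference of -0.48 (standard error 0.23). Here MMTV-Wnt/ILK tumor 2 was the highest of all 8 tumors and the other MMTV-Wnt/ILK tumors were the lowest. Sdhb, the iron-sulfur subunit, was at 7.47, 8.45, 7.90 and 7.70 in MMTV-Wnt/ILK tumors and at 7.74, 8.88, 8.27 and 8.27 in MMTV-Wnt1 tumors, a difference of -0.41 (standard error 0.28). Leaving out 1 tumor at a time put the complex II median between -0.60 and -0.34, and it was -0.44 after median-centring and -0.42 after a repeated quantile normalization.

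Complex III, which passes electrons from quinol to cytochrome c, had a median difference of -0.11, with 5 of 6 genes lower in mean. Leaving out MMTV-Wnt/ILK tumor 1 gave -0.06, and leaving out MMTV-Wnt1 tumors 1, 2, 3 or 4 gave -0.17, -0.05, -0.04 or -0.17. The larger differences were in the core proteins, which help to stabilize the complex. Uqcrc2 averaged 10.97 ± 0.30 in MMTV-Wnt/ILK tumors and 11.35 ± 0.26 in MMTV-Wnt1 tumors (SD, n = 4 each), a difference of -0.38 (standard error 0.20). Uqcrc1 averaged 10.57 ± 0.17 in MMTV-Wnt/ILK tumors and 10.82 ± 0.17 in MMTV-Wnt1 tumors, a difference of -0.25 (standard error 0.15). The subunits that carry the electrons differed less, with the Rieske iron-sulfur protein Uqcrfs1 at -0.11 (-0.52 to 0.30) and Cyc1, the cytochrome that hands electrons to cytochrome c, at -0.07 (-0.44 to 0.29). Uqcr10, a small subunit, had the widest range of this complex, at 1.36, with MMTV-Wnt1 tumor 1 lowest at 7.59 and MMTV-Wnt1 tumor 2 highest at 8.95.

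Complex IV was the only complex with a positive median, 0.07, with 6 of 9 genes higher and 3 lower in mean. That median was -0.03 on leaving out MMTV-Wnt/ILK tumor 3, and leaving out tumor 4 of that group gave -0.01. Cox6a1, the widely expressed isoform of subunit VIa, was at 11.63, 10.35, 11.27 and 11.51 in MMTV-Wnt/ILK tumors and at 10.64, 10.63, 10.61 and 10.41 in MMTV-Wnt1 tumors. In 3 MMTV-Wnt/ILK tumors it lay above every MMTV-Wnt1 tumor, and in MMTV-Wnt/ILK tumor 2 it was the lowest of all 8. The log2 difference was 0.62, a fold change of 1.53, with a 95% interval from 0.0026 to 1.23 (limma, unadjusted p = 0.0492 and adjusted p = 0.905, and exact permutation test, p = 0.143). It was 0.90 without MMTV-Wnt/ILK tumor 2. Cox6b1, which lies on the side that faces cytochrome c, went the opposite way, at 10.19, 10.91, 10.56 and 10.08 in MMTV-Wnt/ILK tumors and at 10.54, 11, 10.89 and 10.82 in MMTV-Wnt1 tumors, a difference of -0.38 (standard error 0.21). Among MMTV-Wnt/ILK tumors, tumor 2 was thus the lowest for Cox6a1 and the highest for Cox6b1.

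**Figure D3:**
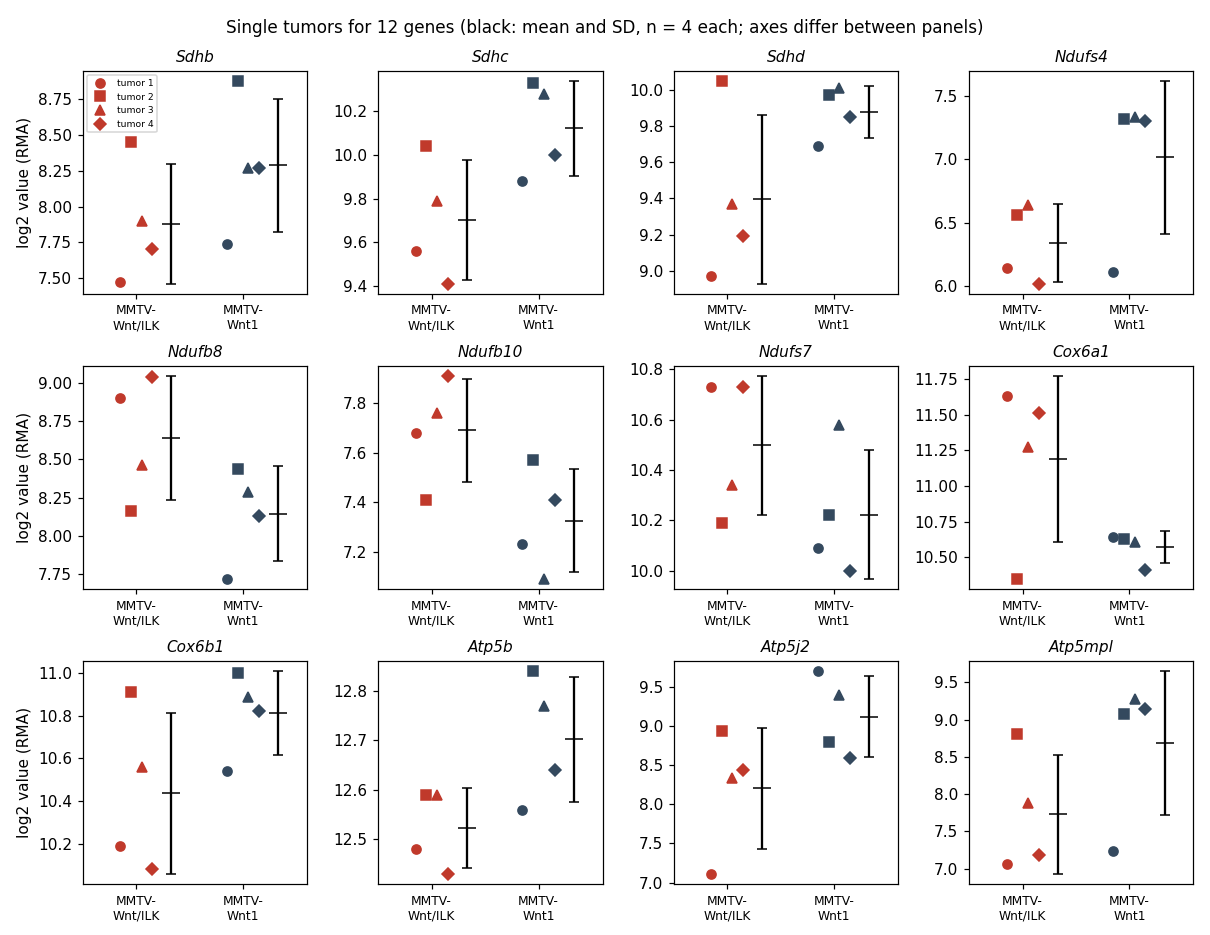
Log2 values (y axis, scale differs by panel) of 12 genes in MMTV-Wnt/ILK tumors (red, left) and MMTV-Wnt1 tumors (dark, right), with the mean and SD in black (n = 4 each) and a marker shape for each tumor number, which is used as a name only. MMTV-Wnt/ILK tumor 2 (square) lies apart from the others of its group for Sdhd at 10.05 and for Cox6a1 at 10.35.

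Complex IV also has isoforms that differ between tissues. Cox6a2, the heart and skeletal muscle isoform of subunit VIa, was at 7.16, 6.80, 8.04 and 7.42 in MMTV-Wnt/ILK tumors and at 7.82, 7.27, 6.87 and 7.09 in MMTV-Wnt1 tumors. Its highest values, in MMTV-Wnt/ILK tumor 3 and MMTV-Wnt1 tumor 1, fell in the tumors with the highest skeletal muscle markers. The mean log2 value of the 8 measured muscle genes was 8.57 in MMTV-Wnt/ILK tumor 3 and from 6.11 to 6.20 in the other MMTV-Wnt/ILK tumors, and it was 7.68 in MMTV-Wnt1 tumor 1 and from 6.01 to 6.36 in the other MMTV-Wnt1 tumors. Their part in Cox6a2 was not tested. Between the groups Cox6a2 differed by 0.09 (standard error 0.30), and by -0.14 without MMTV-Wnt/ILK tumor 3. Cox4i1, the general isoform of subunit IV, was among the steadiest genes, at 10.30 to 10.52 in MMTV-Wnt/ILK tumors and 10.11 to 10.42 in MMTV-Wnt1 tumors. Cox4i2, the isoform linked to lung and to low oxygen, differed by -0.09 (standard error 0.18), and its highest value was 7.53 in MMTV-Wnt/ILK tumor 4. Cox7a2 was dim in both groups (5.64 ± 0.36 in MMTV-Wnt/ILK tumors and 5.79 ± 0.65 in MMTV-Wnt1 tumors, SD, n = 4 each). Cox7b2, a testis isoform, lay below the lower quartile of its array in all 8 tumors.

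Complex V, the ATP synthase, had a median difference of -0.13, with 6 of 8 genes lower in mean. Dropping MMTV-Wnt/ILK tumor 1 gave -0.04, dropping MMTV-Wnt1 tumor 2 gave -0.08, and it was -0.07 after a repeated quantile normalization. The catalytic core was steady. Atp5a1, the alpha subunit, averaged 11.89 ± 0.07 in MMTV-Wnt/ILK tumors and 11.91 ± 0.13 in MMTV-Wnt1 tumors (SD, n = 4 each), a difference of -0.01 with a 95% interval from -0.31 to 0.29, and of 0.09 after a repeated quantile normalization. Atp5b, the beta subunit that holds the catalytic sites, was at 12.48, 12.59, 12.59 and 12.43 in MMTV-Wnt/ILK tumors and at 12.56, 12.84, 12.77 and 12.64 in MMTV-Wnt1 tumors. MMTV-Wnt1 tumor 1 was the only one of its group within the MMTV-Wnt/ILK range (difference -0.18, standard error 0.13, exact permutation test, p = 0.0857).

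The widest spreads of all 59 genes were in small subunits of the membrane part of complex V. Atp5j2, the f subunit, was at 7.11, 8.93, 8.33 and 8.44 in MMTV-Wnt/ILK tumors and at 9.70, 8.79, 9.40 and 8.59 in MMTV-Wnt1 tumors. Its range of 2.59 was set by MMTV-Wnt/ILK tumor 1 and MMTV-Wnt1 tumor 1. The difference was -0.92 (standard error 0.40, limma, unadjusted p = 0.0487 and adjusted p = 0.905, and exact permutation test, p = 0.0857), and it was -0.56 without MMTV-Wnt/ILK tumor 1. Atp5mpl, a small proteolipid of the same part, was at 7.06, 8.80, 7.88 and 7.18 in MMTV-Wnt/ILK tumors and at 7.24, 9.07, 9.28 and 9.14 in MMTV-Wnt1 tumors, a difference of -0.95 (standard error 0.53). These values fell into a high and a low set that crossed the groups, with MMTV-Wnt/ILK tumor 2 high and MMTV-Wnt1 tumor 1 low. Without MMTV-Wnt1 tumor 1 the difference of Atp5mpl was -1.43.

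Promoters of genes that ran in opposite directions are shown to compare their sequences, Cox6a1 and Ndufb8 with a higher and Sdhd and Ndufs4 with a lower MMTV-Wnt/ILK mean. Windows of 300 bases, 250 before and 50 after each gene's start, came from RefSeq (GRCm38.p6) and were there for 47 of the 59 genes, as 50 windows. Cox6a1 is at chr5:115348909-115349208, Ndufb8 at chr19:44555393-44555692, Sdhd at chr9:50603800-50604099 and Ndufs4 at chr13:114388045-114388344, all on the minus strand and printed 5′ to 3′ along the gene. Capitals mark matches on either strand to the palindromic consensus of nuclear respiratory factor NRF1, found here as GCGCATGCGC, GCGCAGGCGC and GCGCACGCGC (any base at the sixth position), to CCGGAAG, the core of sites for GABPA, and to AAGATGGC, the core of the YY1 site.
Cox6a1: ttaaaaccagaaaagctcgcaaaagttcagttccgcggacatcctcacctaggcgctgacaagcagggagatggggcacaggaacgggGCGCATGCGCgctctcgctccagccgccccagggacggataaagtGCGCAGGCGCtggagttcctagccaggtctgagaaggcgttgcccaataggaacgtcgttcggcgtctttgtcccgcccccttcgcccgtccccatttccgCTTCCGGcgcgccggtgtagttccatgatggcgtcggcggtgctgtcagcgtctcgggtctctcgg
Ndufb8: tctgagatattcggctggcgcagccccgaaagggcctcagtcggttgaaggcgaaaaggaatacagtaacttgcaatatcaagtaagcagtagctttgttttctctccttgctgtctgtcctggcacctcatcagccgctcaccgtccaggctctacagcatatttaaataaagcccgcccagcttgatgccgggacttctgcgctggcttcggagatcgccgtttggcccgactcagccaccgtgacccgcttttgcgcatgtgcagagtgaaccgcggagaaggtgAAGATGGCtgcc
Sdhd: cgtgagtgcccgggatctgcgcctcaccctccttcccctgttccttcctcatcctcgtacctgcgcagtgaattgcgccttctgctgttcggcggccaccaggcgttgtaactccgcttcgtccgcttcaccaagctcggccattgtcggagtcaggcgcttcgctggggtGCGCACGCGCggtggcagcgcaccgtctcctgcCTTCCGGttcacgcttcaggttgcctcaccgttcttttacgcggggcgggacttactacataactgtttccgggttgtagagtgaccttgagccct
Ndufs4: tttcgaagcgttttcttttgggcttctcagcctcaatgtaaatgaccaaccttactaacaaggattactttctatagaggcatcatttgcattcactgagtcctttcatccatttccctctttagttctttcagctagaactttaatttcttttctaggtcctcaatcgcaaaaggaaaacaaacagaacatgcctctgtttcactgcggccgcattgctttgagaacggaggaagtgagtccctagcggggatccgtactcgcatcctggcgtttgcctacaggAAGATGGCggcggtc
Counted from 1 at the 5′ end of the window, Cox6a1 had NRF1 matches at 89 and 134 and a GABPA match at 235, and Sdhd had an NRF1 match at 172 and a GABPA match at 205. Ndufb8 and Ndufs4 each had a YY1 match, at 289 and 286, within the bases after the start. Among the 50 windows, an NRF1 match was in 11 (22%), against 4.60% of all 32851 windows. The GABPA letters were in 8 (16%), against 8.86% of all windows, and the YY1 letters in 8 (16%), against 2.75%. Of the other motifs searched on both strands, which may overlap each other, TCAAGGTCA (estrogen-related receptors) was in 2 windows (4%, against 0.423%), of which Sdhd was 1, GGGGCGGGG (SP1) in 9 (18%, against 11.4%), CCAAT in 22 (44%, against 37.4%) and TATAAA in 6 (12%, against 13.6%).

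Other genes of mitochondrial metabolism were read from lists beside the chain itself. Of 17 measured genes of pyruvate dehydrogenase and the TCA cycle, 16 had a lower mean, with a median difference of -0.25, and 1 (Idh3a) was lower at an unadjusted p under 0.05. Idh3a, a subunit of the NAD-dependent isocitrate dehydrogenase, was at 9.59, 9.72, 9.66 and 9.61 in MMTV-Wnt/ILK tumors and at 9.75, 10.75, 10.03 and 10.08 in MMTV-Wnt1 tumors. Its groups did not overlap (exact permutation test, p = 0.0286, the smallest that 4 against 4 tumors can give, and limma, adjusted p = 0.905), as for the 1.42% of all rows that lay wholly lower. Of 16 genes of fatty acid oxidation, 13 had a lower mean, with a median of -0.30, and Eci2, Etfa and Etfdh were lower at an unadjusted p under 0.05. Over all rows 54.7% had a lower mean and 2.21% were lower by that rule. Among rows with exactly 1 gene these shares were 59.1% and 1.84%. Etfa and Etfdh deliver electrons from fatty acid oxidation to quinone, and they differed by -0.56 and -0.54 (standard error 0.23 each). By limma, 0 genes of these lists had an adjusted p under 0.05.

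As deposited, MMTV-Wnt1 tumor 2 was the highest of the 8 tumors for 14 of 17 TCA cycle genes and 13 of 16 fatty acid oxidation genes. It was highest for 16 of 59 respiratory chain genes and 16.4% of all rows. After median-centring these counts were 10, 10 and 6, against 9.36% of rows with exactly 1 gene. After a repeated quantile normalization they were 13, 10 and 13, against 11% of rows with exactly 1 gene. In that tumor, the mean log2 value of the 8 measured brown fat genes was 8.14, against 5.88 to 6.38 in the other MMTV-Wnt1 tumors and 5.63 to 6.21 in MMTV-Wnt/ILK tumors, with 6 of the 8 genes highest there. Of the brown fat genes, Prdm16 was lowest there, at 6.58. White fat genes were high in that tumor too, with 7 of the 8 measured genes highest there. Their mean was 8.10, against 6.10 to 6.66 in the other MMTV-Wnt1 tumors and 6.38 to 6.60 in MMTV-Wnt/ILK tumors. Brown fat is rich in mitochondria, and the part of either fat in these values was not tested. The 16 regulators of mitochondrial biogenesis had a median difference of -0.04. Among them, the coactivator Ppargc1a was at 6.94, 7.25, 7.67 and 7.24 in MMTV-Wnt/ILK tumors and at 6.32, 9.06, 8.05 and 7.52 in MMTV-Wnt1 tumors, with MMTV-Wnt1 tumor 2 highest. Nrf1 differed by -0.17 (standard error 0.13), Gabpa by 0.30 (standard error 0.19) and Tfam, which packages mitochondrial DNA, by 0.29 (standard error 0.24). The 69 rows of mitochondrial ribosome genes had a median of -0.05, with 32 higher and 37 lower in mean. Mrpl48 has more than 1 row among them, at 0.17 and 0.05. The first was dim, averaging 3.25 in MMTV-Wnt/ILK tumors and 3.08 in MMTV-Wnt1 tumors. MMTV-Wnt1 tumor 1 was the lowest tumor for 41 of the 69 as deposited, where it was lowest for 29.2% of all rows. On both other scales it was lowest for 17 of the 69, against 17.7% of all rows. The 37 rows of assembly factors, which include the 6 Ndufaf genes, had a median of -0.15, with 29 lower and 8 higher in mean. Coa5 counts on both sides, with rows at 0.33 and -0.02. The 21 rows taken for the cytosolic ribosome, picked by symbols that start with Rpl or Rps, had a median of -0.11. Of these, 15 were lower and 6 higher in mean. They take in Rps19bp1, named as a binding protein of Rps19, and dim rows such as Rpl31. Rpl31 averaged 3.12 in MMTV-Wnt/ILK tumors and 3.16 in MMTV-Wnt1 tumors.

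**Figure D4:**
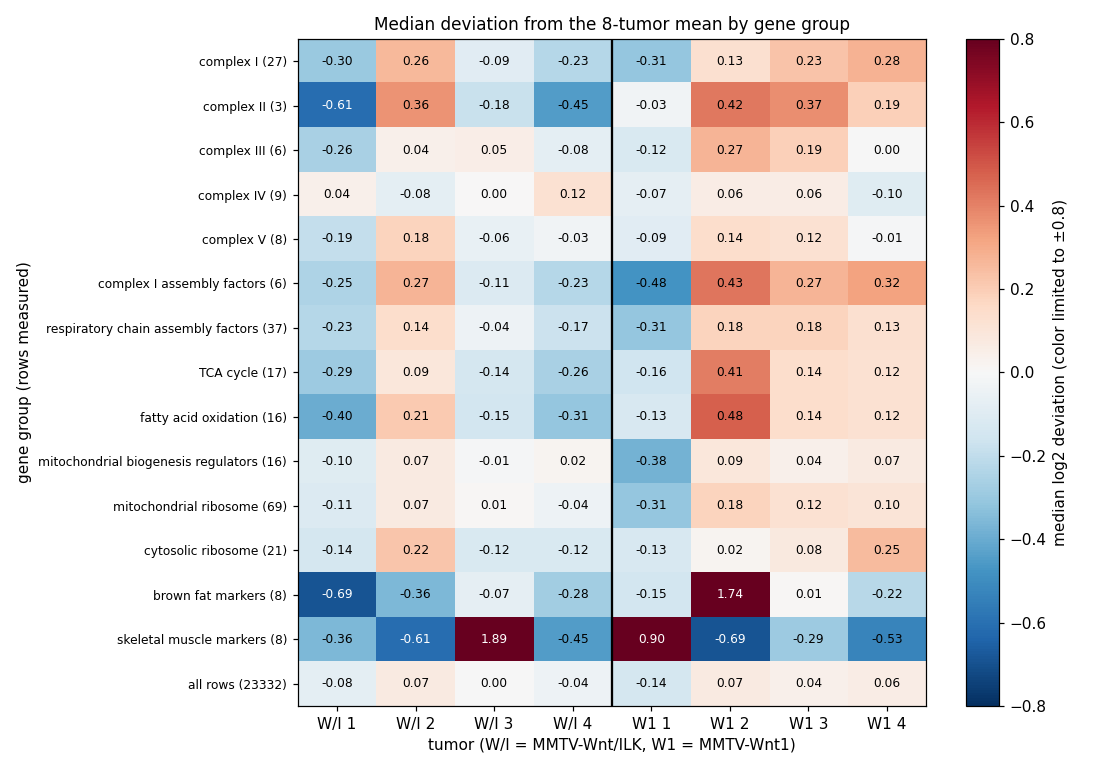
Median log2 deviation from each gene's mean over the 8 tumors, for every complex and for other gene groups (y axis, number of rows in brackets), by tumor (x axis, MMTV-Wnt/ILK left and MMTV-Wnt1 right of the line), with color limited to ±0.8. Complex II stands at -0.61 in MMTV-Wnt/ILK tumor 1 and 0.36 in MMTV-Wnt/ILK tumor 2, and brown fat markers stand at 1.74 in MMTV-Wnt1 tumor 2.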

How the data were processed

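RNA from 8 tumors was hybridized to 1 array each. The deposited table holds log2 values that the authors made with the RMA algorithm of ArrayAssist (version 5.0 in the labels, another in the methods) and quantile normalization between chips. The log base is not stated and was read from how far the values range, and the genome build is not given in the sources used here. All 23332 rows entered the fit; 1019 name several genes and 7317 none. All 59 genes matched the GRCm38.p6 table, used for names, and none has more than 1 row. Probe sequences were not analysed here, so signal from related sequences was not tested.

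The groups were set against each other by lmFit and eBayes of limma 3.58.1 (R 4.3.3) without covariates or a filter, and p-values were adjusted over all rows by the Benjamini-Hochberg method. Exact two-sided permutation tests used the 70 assignments of the tumors, so their smallest p is 0.0286. Pairs of arrays correlated at 0.920 to 0.974, and the number of pairs with identical values was 0. The labels describe separate tumors, and their number limits the precision. Simulated data with known differences were used to test the fit.

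The members and gene lists were chosen with earlier results of these data known. Genes described are isoform pairs, core catalytic subunits and, per complex, those with the smallest p or the largest spread; other lists give their defining markers and genes with the smallest p. The alternatives tried were array weights, median-centring of arrays, a repeated quantile normalization, a per-row equal-variance test, a robust fit with a variance trend, the tumor number as a block, omission of the dimmest 25% of rows, use of rows with exactly 1 gene, and omission of each tumor in turn. Averaging a gene's rows changes nothing here, and the medians of complexes I to V already leave out the Ndufaf genes.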

Additional observations from a re-analysis of the deposited data

Results flagged for a closer look

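In 130 groups of 4 values (59 genes and 6 medians, each in both groups), 9 had a tumor far from the other 3. For independent normal values chance gives about 1 in 20, or 6.50. These genes share the same tumors and arrays and are not independent. The share flagged over all rows is not given, so the count is not read as an excess. MMTV-Wnt/ILK tumor 2 stood apart on the high side for Ndufa1 (log2 value 6.68, the others 5.35 to 5.51), Ndufa5 (8.71, the others 7.78 to 7.88), Ndufs6 (9.15, the others 8.51 to 8.55) and Cox4i1 (10.52, the others 10.30 to 10.33). MMTV-Wnt1 tumor 1 stood apart on the low side for Ndufs4 (6.11, the others 7.30 to 7.33), Atp5mpl (7.24, the others 9.07 to 9.28), Atp5pb (7.01, the others 7.11 to 7.12) and the assembly factor Ndufaf1 (7.81, the others 8.22 to 8.28). MMTV-Wnt1 tumor 4 was low for Cox6a1 (10.41, the others 10.61 to 10.64). Of the 9, 8 thus fell in MMTV-Wnt/ILK tumor 2 or MMTV-Wnt1 tumor 1, whose arrays had medians of 7.23 and 6.89, at the high and low end of the 8 arrays. As deposited, 59.2% of all rows lay above their mean in MMTV-Wnt/ILK tumor 2 and 36.9% in MMTV-Wnt1 tumor 1. The part of array scaling in these values was not tested.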

How the results depend on the processing

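No respiratory chain gene passed an adjusted p of 0.05 under any alternative. Over all rows the count at that threshold was 0 in the main analysis and 0 to 13 on omission of single tumors, with the 13 found without MMTV-Wnt/ILK tumor 2. At an unadjusted p under 0.05, 1 member counted as higher in the main analysis, with 2.91% of all rows. The members counted as higher were 0 with an equal-variance test per row (2.85% of all rows), 0 with median-centring (2.41%) and 0 with a repeated quantile normalization (3.11%). They were 3 with array weights (4.03%), and 0 to 3 when each tumor was left out (1.78% to 3.48%). Those counted as lower (2 in the main analysis) were 1 with an equal-variance test, 6 with median-centring, 19 with array weights, and 0 to 12 when each tumor was left out. The share of all rows called lower was 2.31%, 2.85% and 7.14% under those settings and 1.33% to 5.67% without single tumors, against 2.21% in the main analysis. Medians of complexes I, II, III and V kept their sign under all alternatives run, with ranges of -0.34 to -0.08, -0.60 to -0.34, -0.17 to -0.04 and -0.17 to -0.04 on omission of single tumors, and the complex IV median of 0.07 lay between -0.03 and 0.09 on omission of single tumors. The cause of these changes was not tested.

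Whether the tumor numbers pair the tumors is not settled. Deviations from the group means correlated at 0.107, 0.132, 0.155 and -0.004 for numbers 1 to 4, against a mean of -0.03 over the 12 pairs with other numbers (-0.238 to 0.134). The labels do not say that a number marks anything shared, and not every pair passed 0.1, so the main analysis is unpaired. With the tumor number as a replicate block, 0 members were higher and 9 lower at an unadjusted p under 0.05, where 3.19% of all rows were higher and 3.17% lower, and 0 members passed an adjusted p of 0.05.

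For 31 genes, 484 of 496 values under alternatives kept their direction, and 23 genes never changed sign. Atp5a1 (main -0.01) was 0.09 with a repeated quantile normalization and -0.07 to 0.03 on omission of single tumors. Leaving out each tumor also turned the sign of Ndufv2 (-0.35 to 0.05), Cyc1 (-0.15 to 0.02), Uqcrfs1 (-0.19 to 0.02), Uqcr10 (-0.38 to 0.07), Cox4i2 (-0.20 to 0.01), Cox6a2 (-0.14 to 0.28) and Cox7a2 (-0.47 to 0.0018). Dim rows such as Cox7b2, Cox7a2 and Ndufa1 limit what small differences can show.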

Other observations

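Genes of glycolysis and of the response to low oxygen were read beside the respiratory chain. Of 13 rows of glycolysis genes, 11 averaged lower in MMTV-Wnt/ILK tumors, with a median log2 difference of -0.18. A lower mean was found for 54.7% of all rows and 59.1% of rows with exactly 1 gene. The rows that averaged higher, at 0.17 and 0.13, both belong to Ldhb. Hk2, a hexokinase, was at 7.74, 7.57, 8.48 and 7.51 in MMTV-Wnt/ILK tumors and at 8.88, 8.28, 8.40 and 8.62 in MMTV-Wnt1 tumors, a difference of -0.72 (standard error 0.24, limma, unadjusted p = 0.0171 and adjusted p = 0.905). Tpi1, triose phosphate isomerase, differed by -0.71 (standard error 0.24). MMTV-Wnt1 tumor 1 was the highest of the 8 tumors for Hk2, and 8 of 59 respiratory chain genes lay above their mean there as deposited. That count was 31 after median-centring and 27 after a repeated quantile normalization. MMTV-Wnt1 tumor 3, with 48 of 59 genes above their mean as deposited, was the highest for Tpi1, at 12.32. The median deviation of the 13 glycolysis rows as deposited was 0.56 in MMTV-Wnt1 tumor 3 and 0.32 in MMTV-Wnt1 tumor 1.

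Of 13 measured genes induced by low oxygen, 12 had a lower mean, against 54.7% of all rows and 59.1% of rows with exactly 1 gene. Slc2a1 is on this list and among the glycolysis rows. Their median difference was -0.34, and none passed an unadjusted p of 0.05 with limma. Their median deviation was 0.48 in MMTV-Wnt/ILK tumor 3 and 0.64 in MMTV-Wnt1 tumor 1. Cox4i2, which this list shares with complex IV, did not follow them, its highest value being in MMTV-Wnt/ILK tumor 4. These values are a description of 8 tumors, with no explanation tested.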
